A study of Mus musculus with 2 samples.

Results

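The table of miRNA alignments deposited with a study of RNA bound by nucleolin held 7 miRNA genes that lie within 1119 kb of mouse chromosome 17, in the major histocompatibility complex (MHC) region. They give mmu-miR-6970, mmu-miR-6971, mmu-miR-6973a, mmu-miR-6974, mmu-miR-6975, mmu-miR-8094 and mmu-miR-877. These were selected on their presence in the table and on their genome position, by their names without the arm, and they make up 7 of the 101 genes listed, with 1 row each. The study sequenced small RNA from naïve CD4+ T cells of wild type C57 mouse spleen that had been stimulated with anti-CD3/28. There was 1 nucleolin immunoprecipitate and 1 sample labelled as input, with no replicate of either, whereas the design text speaks of IgG as the second antibody. The number of animals behind each sample is not stated in the labels. The table has no read count and no column that belongs to 1 sample. Depth is therefore unknown, the members cannot be compared between nucleolin and input, and the labelled cell type could not be checked against marker genes. The values below describe reference sequences and their alignments, without replicate error and without a test.

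A miRNA is cut from a hairpin in a longer transcript, usually by Drosha in the nucleus and Dicer in the cytoplasm. Either arm of the hairpin, 5p or 3p, can give a mature miRNA. The seed of a mature miRNA, bases 2 to 8, pairs with target mRNAs. A mirtron is a hairpin whose ends are set by splicing of a short intron in place of Drosha, and in a tailed mirtron splicing sets only 1 end. Nucleolin is an RNA-binding protein of the nucleolus that takes part in ribosome production. The MHC region is dense in genes and carries the lymphotoxin genes beside genes for general RNA handling.

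The sequences of 4 of the 7 members were used from the RefSeq table (GRCm38.p6), and miR-6970-3p, miR-6971-3p and miR-6974-3p are named only. The listed mature miRNAs are shown 5′ to 3′ with the seed, bases 2 to 8, in capitals, because the comparisons of seed and base composition rest on them.
miR-6973a-5p: uACGGUGGgagggguggaguug
miR-6975-5p: gCUGGGGAgaaagggguuuggca
miR-8094: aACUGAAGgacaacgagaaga
miR-877-3p: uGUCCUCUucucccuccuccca

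The 4 seeds were all different, so that 0 members shared a seed with another, and 0 shared one with any other listed miRNA that has a sequence. Over the annotated mature miRNAs of the RefSeq table, the seed of miR-6975-5p was also that of miR-7005-5p, which is not a member. The other 3 seeds occurred in no other entry. Over the RefSeq entries used, 468 of 1677 differently named mature miRNAs share their seed with another name. The longest stretch common to a pair of members was the 6 nt run AGGGGU of miR-6973a-5p and miR-6975-5p.

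The table identifies its queries by transcript, from ENSMUST00000183497 for Mir6971 to ENSMUST00000104738 for Mir877, and positions here are those of these transcripts in GENCODE M21. The stretch ran from 34841809 to 35960814 on GRCm38 and held 10 annotated miRNA genes, of which 7 were listed (70%). Over all 2207 annotated miRNA transcripts 4.58% were listed. The ends of the stretch were drawn at listed genes, so nothing is read from the higher share. The members fell into 3 places. Mir6971 and Mir6970 lay within 3.36 kb of each other at the lower end. Mir6973a, Mir6974, Mir6975 and Mir8094 lay within 56.4 kb, starting 350 kb above Mir6970. Mir877 lay alone, 709 kb above Mir8094.

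Just inside the ends are Mir6971 and Mir877, and beyond them the nearest listed genes of the chromosome were Mir3082, 9010 kb below, and Mir6976, 10593 kb above. The nearest annotated miRNA genes beyond the ends, Gm27471 at 71.2 kb below and Gm26429 at 3500 kb above, were not listed. In all, 11 of the 73 annotated miRNA genes of chromosome 17 were listed.

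The 3 unlisted genes of the stretch were Mir6972, Gm28033 and Mir1894. Mir6972 lies on the same strand in an intron of 99 nt of Cfb, which encodes complement factor B. It ends at the last base of that intron, as 6 of the 7 members do in some host transcript. The 60 nt searched from the lower coordinate of Mir6972 would hold all 23 nt of miR-6972-5p. Mir1894 is within Ppp1r10, which encodes a regulatory subunit of a protein phosphatase, and 22 nt of miR-1894-5p lay in the same part of this gene. Gm28033 lies on the opposite strand of Ppp1r18 and had no annotated mature miRNA in RefSeq. A match in the searched part and a place at an intron end were therefore found for an unlisted gene of the stretch too, and without read counts the absence of Mir6972 cannot be read as absence from the libraries.

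**Figure D1:**
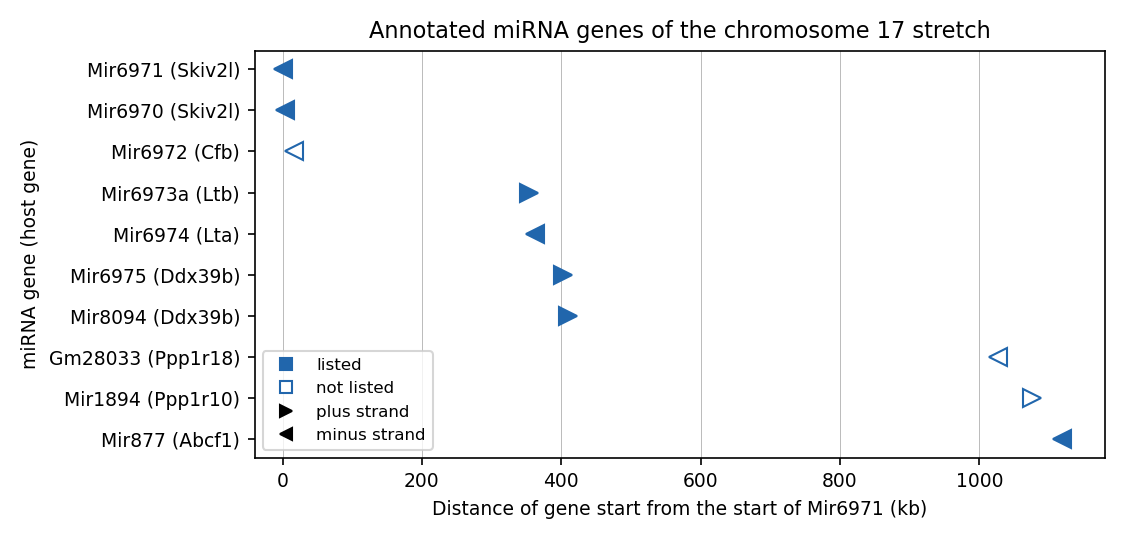
Position of each annotated miRNA gene of the stretch, as the distance of its start from the start of Mir6971 in kb, with its host gene in brackets. Filled arrows are the 7 listed genes and open arrows the 3 unlisted ones, and arrows point along the strand. The listed genes lie at 3 places, with 4 of them from Ltb to Ddx39b.

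All 7 members were contained in a coding gene of the same orientation, and the hosts numbered 5. Among the other 94 listed genes this held for 83 (88.3%). An end of the miRNA gene lay at an end of a host intron, within 3 nt, in 6 of 7 members and in 48 of 94 other listed genes (51.1%). The miRNA gene filled an intron from end to end in 3 of 7 members and in 4 of 94 others (4.26%). More than 3 nt of it lay in an exon of some host transcript in 2 of 7 members, Mir6970 and Mir8094, and in 45 of 94 others (47.9%). The 94 others mix miRNAs of several kinds, and those numbered close to most members were not counted apart. The differences are therefore not shown to be particular to the stretch. The members are few and neighbours, and these features were seen before they were chosen, so the differences were not tested.

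Ltb and Lta, closely linked genes on opposite strands, are the lymphotoxin hosts. Lta encodes lymphotoxin alpha, a secreted cytokine of the tumour necrosis factor family made by activated lymphocytes. Ltb encodes lymphotoxin beta, the membrane protein that holds lymphotoxin alpha at the cell surface. Mir6974 (35204475 to 35204557, minus strand) is the whole of intron 2 of Lta, 83 nt long. Mir6973a (35194972 to 35195049, plus strand) takes up the last 78 nt of the 366 nt intron 1 of Ltb, 21.3% of it. In the transcript Ltb-203 that intron runs on to a later splice site, and Mir6973a then ends 86 nt before it. The call of an intron end for Mir6973a thus rests on 2 of its 3 host transcripts.

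The other hosts act on RNA or on translation. Skiv2l encodes the helicase of the Ski complex, which feeds RNA to the cytoplasmic exosome for decay. Mir6970 (34845101 to 34845167, minus strand) is the whole of intron 14 of Skiv2l, 67 nt long, in the protein-coding transcript Skiv2l-201. The same 67 nt are exon sequence in 4 transcripts of Skiv2l annotated with a retained intron. Mir6971 (34841809 to 34841871, minus strand) is the last 63 nt of intron 19, which has 135 nt. All 6 transcripts of Skiv2l over that locus place it at the intron end. The pair thus sits in different introns of 1 transcript.

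Abcf1 encodes an ATP-binding cassette protein that works in translation initiation and not in transport. Mir877 (35960730 to 35960814, minus strand) is the whole of its intron 12, 85 nt long. MiR-877 is known as a mirtron of the same gene in human as well.

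Ddx39b encodes an RNA helicase of splicing and mRNA export, and its 2 members differ in kind. Mir6975 (35244075 to 35244135, plus strand) is the last 61 nt of intron 2, which has 685 nt, and so takes up 8.91% of it. Mir8094 (35251289 to 35251405, plus strand) is the only member outside the intron pattern. It has 90 nt in the 132 nt coding exon 7 and 27 nt in the intron that follows. The mature miR-8094 lies wholly in coding sequence and ends 44 nt before the end of the exon.

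**Figure D2:**
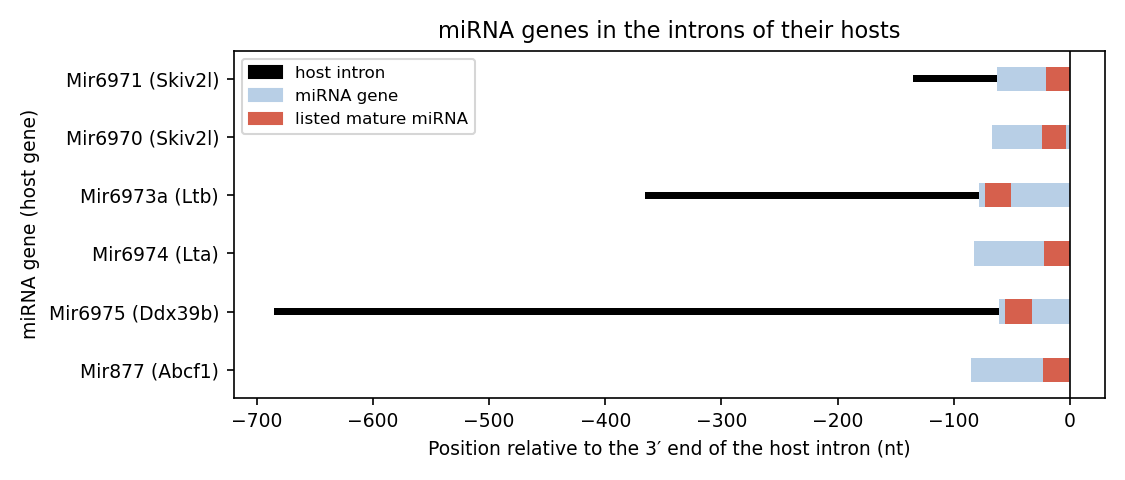
The 6 intronic members drawn to scale, in nt from the 3′ end of the host intron, with the intron as a black line, the miRNA gene in light blue and the listed mature miRNA in red. The introns are those of the host transcript that GENCODE names first. In these, every miRNA gene reaches the intron end at 0, and Mir6970, Mir6974 and Mir877 leave no intron sequence outside the gene.

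Measured from the intron's 3′ end, the listed 3p miRNAs ended within 3 nt of the splice site. MiR-6971-3p and miR-6974-3p ended at the last base of the intron, 0 nt from it. MiR-877-3p ended 1 nt before that base and miR-6970-3p 3 nt before it. MiR-6971-3p and miR-6974-3p thus reach the intron end, while the other 2 stop short of it. The listed 5p miRNAs began 5 nt inside their genes, and ended 51 nt (miR-6973a-5p) and 33 nt (miR-6975-5p) before the intron end.

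The hairpins are shown because they carry these ends, with the listed mature miRNA in capitals, 5′ to 3′ on the gene's strand. Mir877 fills its intron, Mir6973a and Mir6975 only end with theirs, and Mir8094 crosses from an exon into an intron.
Mir877: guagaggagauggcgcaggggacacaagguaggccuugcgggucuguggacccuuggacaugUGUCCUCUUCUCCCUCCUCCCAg
Mir6973a: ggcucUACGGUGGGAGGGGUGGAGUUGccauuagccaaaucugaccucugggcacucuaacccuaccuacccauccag
Mir6975: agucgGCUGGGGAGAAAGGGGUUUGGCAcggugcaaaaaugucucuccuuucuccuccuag
Mir8094: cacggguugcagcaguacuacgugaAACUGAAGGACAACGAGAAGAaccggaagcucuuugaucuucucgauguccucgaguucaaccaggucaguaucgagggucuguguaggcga

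The hairpin of Mir877, which fills an intron, begins with GU and ends with AG, the bases of a splice donor and acceptor. The 2 that only end with an intron, Mir6973a and Mir6975, also end with AG but begin with GG and AG, without the donor. In Mir8094 the exon ends with CAG and the intron begins with GUCAGU, past the mature miRNA. In the last 22 nt of these 3 intronic hairpins, pyrimidines made up 68.2% in Mir6973a and 86.4% in both Mir6975 and Mir877. In the first 22 nt they made up 18.2% to 31.8%. In these 3 hairpins the 3′ sides were thus rich in pyrimidines and the 5′ sides rich in purines, whichever arm was listed. The other listed hairpins were not set beside them on this measure, so it is not shown to be particular to the members.

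The mature miRNAs of these intronic hairpins followed the sides. MiR-877-3p was 90.9% pyrimidine. The 32 other listed 3p miRNAs with a sequence had a median of 64.1% (36.4% to 81.8%), so miR-877-3p was above all of these 32. MiR-6973a-5p was 27.3% pyrimidine and miR-6975-5p 26.1%, against a median of 36.4% (21.7% to 65.2%) in 35 other listed 5p miRNAs. MiR-8094, whose name carries no arm and which comes from coding sequence, was 19.05% pyrimidine. The 11 other listed miRNAs with no arm named and with a sequence had a median of 36.4% (14.3% to 70.8%). The first base was U in miR-6973a-5p and miR-877-3p, G in miR-6975-5p and A in miR-8094.

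By RNAfold, the predicted minimum free energy was -37.6 kcal/mol for Mir8094, -36.5 for Mir877, -28.9 for Mir6973a and -22.7 for Mir6975. The order was that of length, from 117 nt in Mir8094 to 61 nt in Mir6975. The median of the 4 was -32.7 kcal/mol, against -29.6 in 74 other listed hairpins and -32.0 in the 1004 RefSeq hairpins used. Per nt the medians were -0.371 for the members and -0.396 for the other listed hairpins, so the order turned with the division by length. A single terminal loop was predicted in 4 of 4 members and in 70 of 74 others. Within the predicted folds, 72.7% of the bases of miR-6973a-5p were paired, 73.9% of miR-6975-5p, 77.3% of miR-877-3p and 90.5% of miR-8094. The median in 72 other listed miRNAs was 78.3% (36.4% to 95.5%).

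The GC content of the hairpins was 51.3% in Mir8094, 54.1% in Mir6975, 57.7% in Mir6973a and 61.2% in Mir877. Their median was 55.9%, against 57.5% in the other listed hairpins and 51.7% in the 1004 RefSeq hairpins. On fold and GC content these 4 members lay inside the range of the rest of the list.

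**Figure D3:**
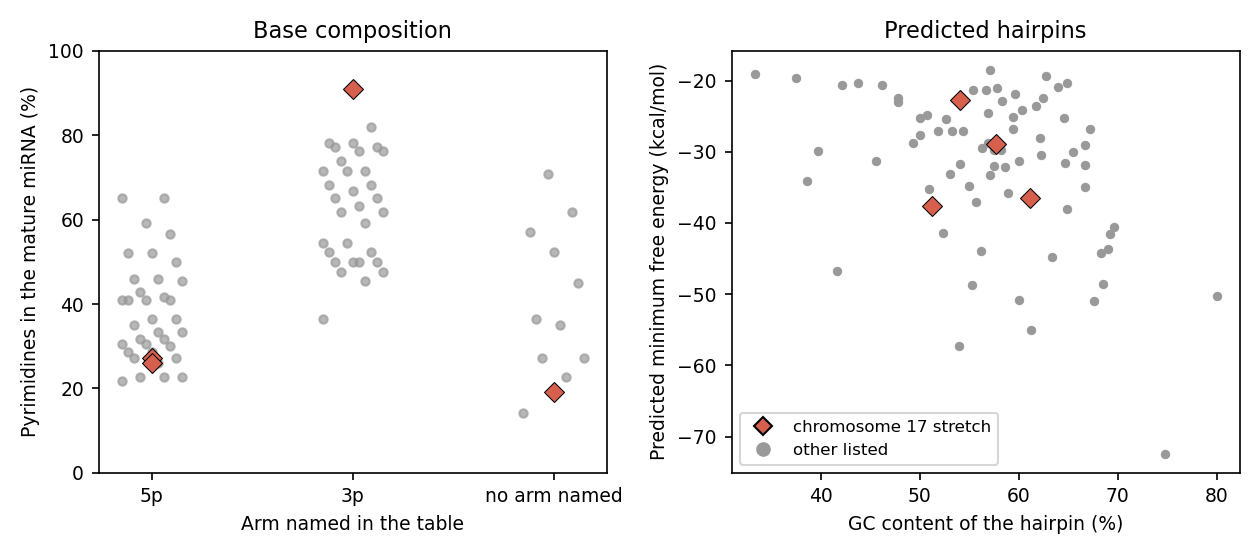
Left, the percentage of pyrimidines in each listed mature miRNA by the arm named, with the 4 members whose sequences were used as red diamonds and the other listed miRNAs as grey points. Right, predicted minimum free energy in kcal/mol against GC content of the hairpin in percent. MiR-877-3p, at 90.9%, is at the top of the 3p column, while on the right all 4 members lie among the other hairpins.

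In the alignments, every member had 100% identity over its whole mature miRNA. Both sequences are references and no read is involved, and whether the authors applied a cutoff on identity is not stated. Identity was 100% in all 94 other rows too, and 91 of these (96.8%) covered the whole mature miRNA. The query was 60 nt in all 7 rows of the members and in 87 of the 94 others (92.6%). In each member's row the query starts at the end of the gene with the lower coordinate, whichever strand the gene is on. The aligned length was 21 nt for miR-6970-3p, miR-6971-3p and miR-8094, 22 nt for miR-6973a-5p, miR-6974-3p and miR-877-3p, and 23 nt for miR-6975-5p. Across the 101 rows the length ran from 19 to 25 nt with a median of 22 nt, the same median as that of the members. The E-values of the members, 2.46e-07, 6.23e-08 and 1.58e-08 for 21, 22 and 23 nt, followed the length alone, and the bit scores were 42.1, 44.1 and 46.1. The alignments covered 35%, 36.7% and 38.3% of the query.

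The start in the query split the members by strand. For the 4 genes on the minus strand (subject_frame, the orientation of the miRNA against the query, -1) it was base 1 for miR-6971-3p and miR-6974-3p, base 2 for miR-877-3p and base 4 for miR-6970-3p. For the 3 on the plus strand (orientation 1) it was base 6 for miR-6973a-5p and miR-6975-5p and base 26 for miR-8094. The median start was base 4 in the members and base 6 in the other 94 rows. All 4 minus-strand members were 3p and both plus-strand members with an arm were 5p. By arm, the rest of the list was split in a similar way. Of the other rows, 35 of 35 for 3p were on the minus strand and 33 of 41 for 5p on the plus strand. The split of the starts did not hold over the list. For example, miR-6927-5p (orientation 1) started at base 1 and miR-6935-5p (orientation -1) at base 38.

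**Figure D4:**
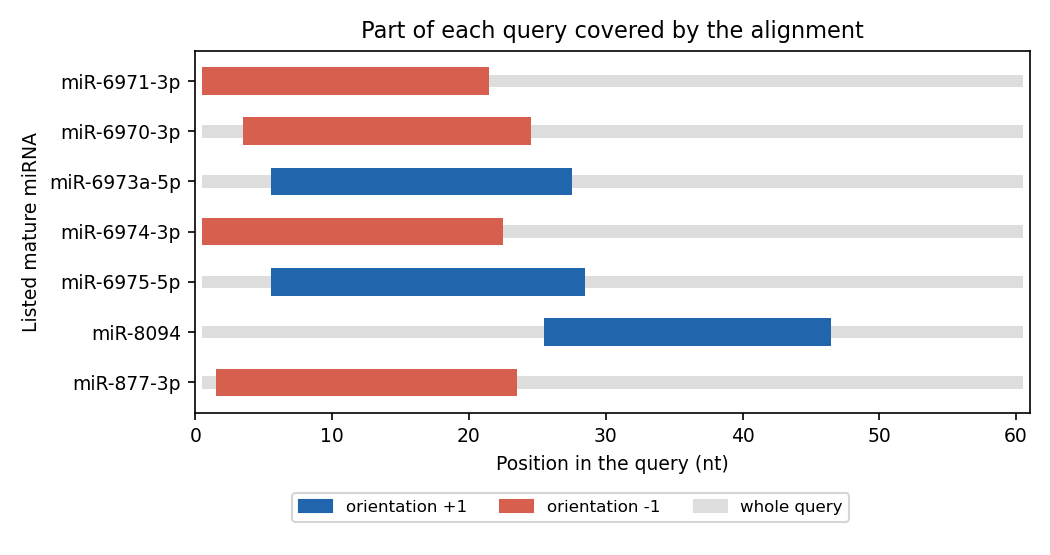
The 60 nt query of each member in grey with the aligned part in colour, red for orientation -1 and blue for 1. The 4 red alignments start at bases 1 to 4, 2 blue ones start at base 6, and miR-8094 starts at base 26.

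The searched part limited which arm could be found. Of miR-877-5p 0 nt lay in it, of miR-6974-5p 1 nt, of miR-6973a-3p 8 nt and of miR-6970-5p 18 of 25 nt. For Mir6975 the part held 19 of the 20 nt of the 3p arm, beside all 23 nt of the listed 5p arm. For Mir6971 it held both arms whole, 21 nt of 3p and 20 nt of 5p, and the longer was the one listed. RefSeq annotates 1 mature miRNA for Mir8094. The arms named for the members are therefore no measure of which arm the cells held.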

How the data were processed

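The authors deposited 1 table of alignments between mouse transcripts and mature miRNAs. Per the file headers, the deposited identity is in percent, and the score, bit score, E-value and positions are the aligner's own output. Its settings and the choice of transcripts are not stated in the labels or the header. Per the submitters' processing notes the build was mm9, while the design text names mm10. Query transcripts were looked up by identifier in GENCODE M21, an annotation of GRCm38, which gives all positions here, counted from 1. A host gene contains the whole locus, same strand first, then protein-coding, then the shortest. Intron numbers are those of the host transcript that GENCODE names first. Positions of mature miRNAs come from RefSeq, and their sequences from a RefSeq table of GRCm38.p6. Sequence-based values are given for 4 of the 7 members, and those of the other 3 are not reported here. Hairpins were folded with ViennaRNA 2.7.2 at 37 °C. The placement of loci in introns was checked on 5 made-up loci with known answers, and 0 were wrong. Overlap with coding sequence was not part of that check. The members and lists were chosen with earlier results of these data known. All 7 members are named, with the unlisted miRNA genes of the stretch and the nearest listed ones. Other genes were named after their values were seen. No test was made. The planned nucleolin over input difference could not be computed.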

Additional observations from a re-analysis of the deposited data

How the results depend on the processing

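Of 11 alternatives, 7 left the value the same or, for counts and shares, within 1.5 times. All 7 members stayed at an intron end or in an exon with a tolerance of 0 nt or 10 nt. The same held with protein-coding host transcripts only. At 3 nt over all host transcripts, 77 of 94 other listed genes (81.9%) were at an intron end or in an exon too. All 7 members had a same-strand coding host in RefSeq. In protein-coding transcripts 1 member, Mir8094, was exonic, against 2 over all transcripts. With alignments of at least 22 nt, 4 of 7 members (57.1%) were left, since 3 have 21 nt. The same cutoff left 59 of the 94 other rows (62.8%), a similar share. A searched part taken from the gene's own 5′ end would hold the whole listed miRNA of 3 members, those on the plus strand. The median GC content was 59.98% over mature miRNAs against 55.9% over hairpins, and the median free energy was -0.371 kcal/mol per nt. The listed share of the stretch was 77.8% over loci with at least 19 nt of a mature miRNA in the searched part. Its ends were drawn at listed genes, so nothing is read from this share either. No paired analysis was possible because the table gives neither sample a value. Depth is unknown.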
